A study of Mus musculus with 47 samples.

Results

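Cytochrome P450 (Cyp) genes outside the Cyp1a, Cyp1b, Cyp2c and Cyp3a families were described across duodenum and ileum of germ-free and conventionally raised mice. The members were the rows of the exon count table whose symbol has the form of a single P450 gene, leaving out those 4 families and Cyp4a10, Cyp11a1, Cyp24a1 and Cyp26b1. The rule used names only. It gave 62 of 38087 genes, out of 91 rows with a P450 symbol of this form. All mice were male C57BL/6j, 15 to 16 weeks old, with food always at hand. Germ-free (GF) mice lack microorganisms, and conventionally raised (convR) mice carry a gut flora. Tissue was taken at 6 times of the day, counted in hours from lights on (zeitgeber time), ZT2, 6, 10, 14, 18 and 22. Duodenum gave 12 convR and 12 GF libraries, and ileum 12 convR and 11 GF libraries, with 2 per group and time except GF ileum at ZT2, which had 1. The labels do not say whether replicates come from separate animals, so every p-value measures the spread between these samples.

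P450 enzymes are heme proteins that insert an oxygen atom into lipophilic molecules. Most sit in the endoplasmic reticulum and take electrons from the reductase Por, helped by cytochrome b5, while the mitochondrial members take them from ferredoxin. In the small intestine they are found mainly in enterocytes, where they act on drugs and food compounds, on fatty acids and the signalling lipids made from them, on sterols and bile acid precursors, and on vitamin D.

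Library totals ran from 22.5 to 41.9 M counts with a median of 31.9 M. A count of 3 corresponded to 0.0716 to 0.133 CPM (counts per 1 M of the scaled library total), so genes at such levels are near the limit of detection. Enterocyte markers were present in every library, with a summed level of 12680 to 36920 CPM in convR duodenum, 28920 to 43260 in GF duodenum, 14390 to 26480 in convR ileum and 20900 to 35170 in GF ileum, and none of the 8 markers at 0. Fabp6, the bile acid binding protein of ileal enterocytes, was at 2.65 CPM or less in every duodenum library and at 206.6 CPM or more in every ileum library. In all, 12 libraries stood apart by pancreas or stomach markers, by their scaling factor or, in ileum, by low Fabp6: 10 were duodenum (7 convR, 3 GF) and 2 were ileum. Without them, convR duodenum has no library at ZT6 or ZT14 and GF duodenum has none at ZT22. Most convR duodenum libraries then left are of replicate 1. Duodenum values given without these libraries thus come from a small and unbalanced set. In RNA of whole tissue, fewer cells of a type and less RNA per cell cannot be told apart.

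The 62 members together took 0.187 to 0.335% of all counts in convR duodenum (mean 0.274%), and 0.342 to 0.463% in GF duodenum (mean 0.416%). In ileum they took 0.158 to 0.268% in convR (mean 0.216%) and 0.279 to 0.415% in GF (mean 0.328%). The GF libraries were thus above all convR libraries of the same tissue. Of the 62 members, 29 reached a mean of 1 CPM in at least 1 of the 4 groups, and 1, Cyp19a1 (aromatase, which makes estrogens), had no count in any library.

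Per length of exon (RPKM, CPM per kilobase), Cyp4f14, a hydroxylase of leukotrienes and other fatty acid derivatives, was the most abundant member in all 4 groups, with means of 361.7 in convR duodenum, 435.5 in GF duodenum, 408.8 in convR ileum and 591 in GF ileum. The next in convR duodenum were Cyp2d26, a drug-type P450, at 176 RPKM and Cyp2b10, the classic target of the xenobiotic receptor CAR (Nr1i3), at 165 RPKM, followed by Cyp4v3, a fatty acid hydroxylase, at 87.5 RPKM. Cyp4f16 at 56.6 RPKM and Cyp2j6, an epoxygenase of arachidonic acid, at 48.5 RPKM came after these. In GF duodenum Cyp2d26 reached 350.2 RPKM, Cyp2b10 218 RPKM, Cyp2j6 169.8 RPKM, Cyp4v3 154 RPKM and Cyp4b1, a hydroxylase of fatty acids and some plant toxins, 142.5 RPKM.

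**Figure D1:**
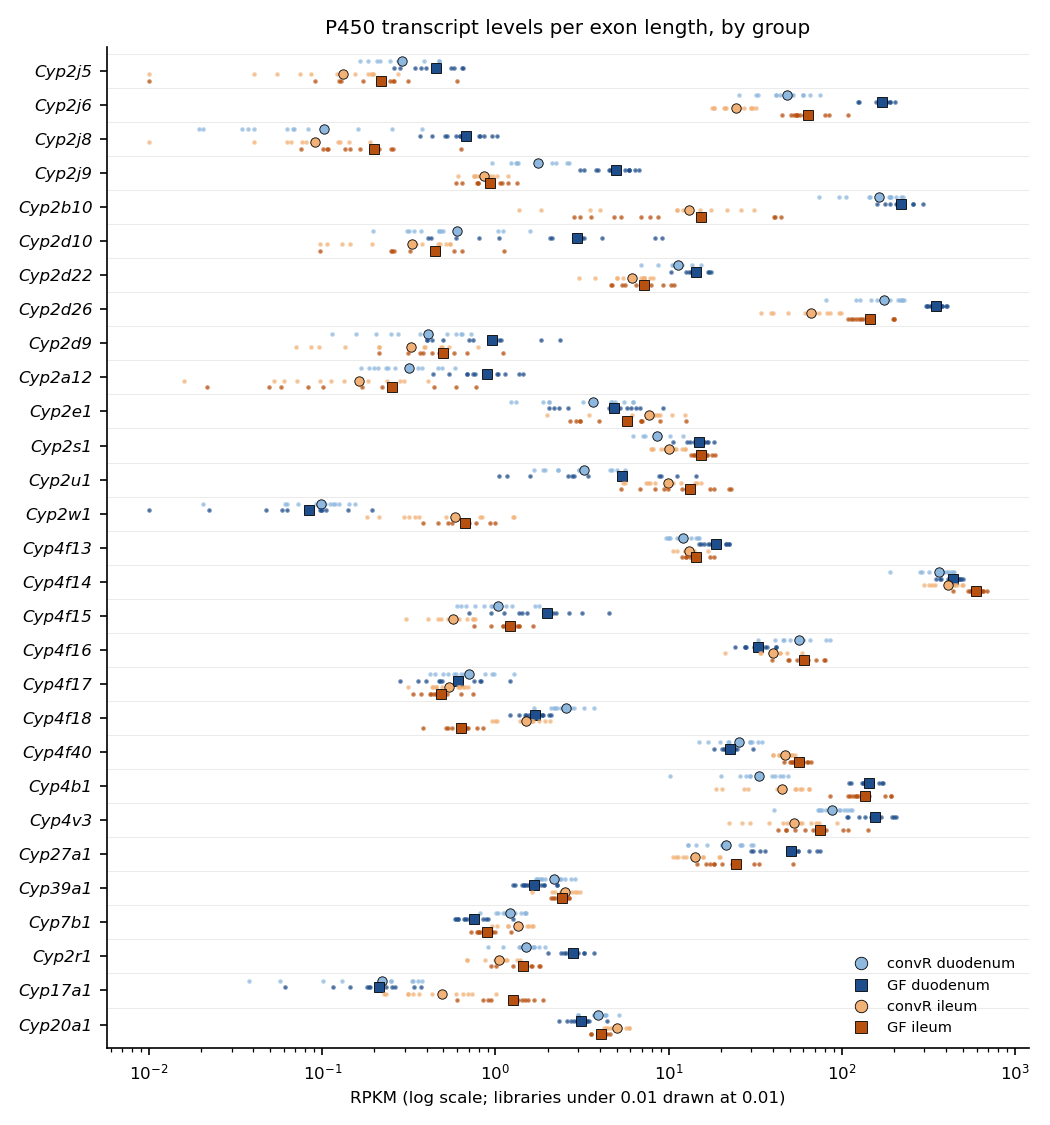
Levels of the 29 members with a mean of at least 1 CPM in a group, in RPKM on a log axis. Small points are libraries and large symbols are group means, with circles for convR and squares for GF. Cyp4f14 lies highest in all 4 groups, and Cyp2b10 shows the widest gap between duodenum and ileum.

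The comparison of GF with convR asked how the absence of a flora goes with P450 transcripts in each tissue, with ZT as a factor in the model. In duodenum 33 of the 62 members had enough counts to be tested, and 20 rose and 5 fell in GF. Over all 17986 genes tested, 46.3% passed, with 22.5% higher and 23.8% lower. The median log2 fold change of the 33 members was 0.65, against -0.01 over all genes. In ileum 32 were tested, of which 13 rose and 3 fell, against 19.5% and 22.4% of all 18082 genes (42% in either direction), with a median log2 fold change of 0.47 against 0.01. These counts and all adjusted p-values below come from edgeR quasi-likelihood tests with Benjamini-Hochberg adjustment over all genes tested. Without the 12 libraries that stand apart, 12 members rose and 4 fell in duodenum, and 12 rose and 3 fell in ileum. In that setting 14.2% of all genes rose in duodenum (28.9% passed in either direction) and 18% in ileum (39%). When libraries were scaled by their totals alone, the share of rises among all genes called in duodenum went from 48.5 to 24.6%. The median of all genes went to -0.14. By that scaling 18 members rose and 6 fell in duodenum, where 12% of all genes rose and 48.7% passed in either direction. In ileum that scaling moved the share from 46.6 to 32.3%, with 12 members higher and 3 lower. Of all genes tested there 12.8% rose and 39.7% passed in either direction. Cell type markers moved as well. In GF duodenum 5 of 8 enterocyte markers rose and none fell (median log2 fold change 0.37), and in GF ileum 2 rose and 1 fell (0.19). All 6 macrophage markers fell in both tissues, and all 6 smooth muscle markers rose in GF ileum (0.39). Their part in the change of the members was not tested.

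**Figure D2:**
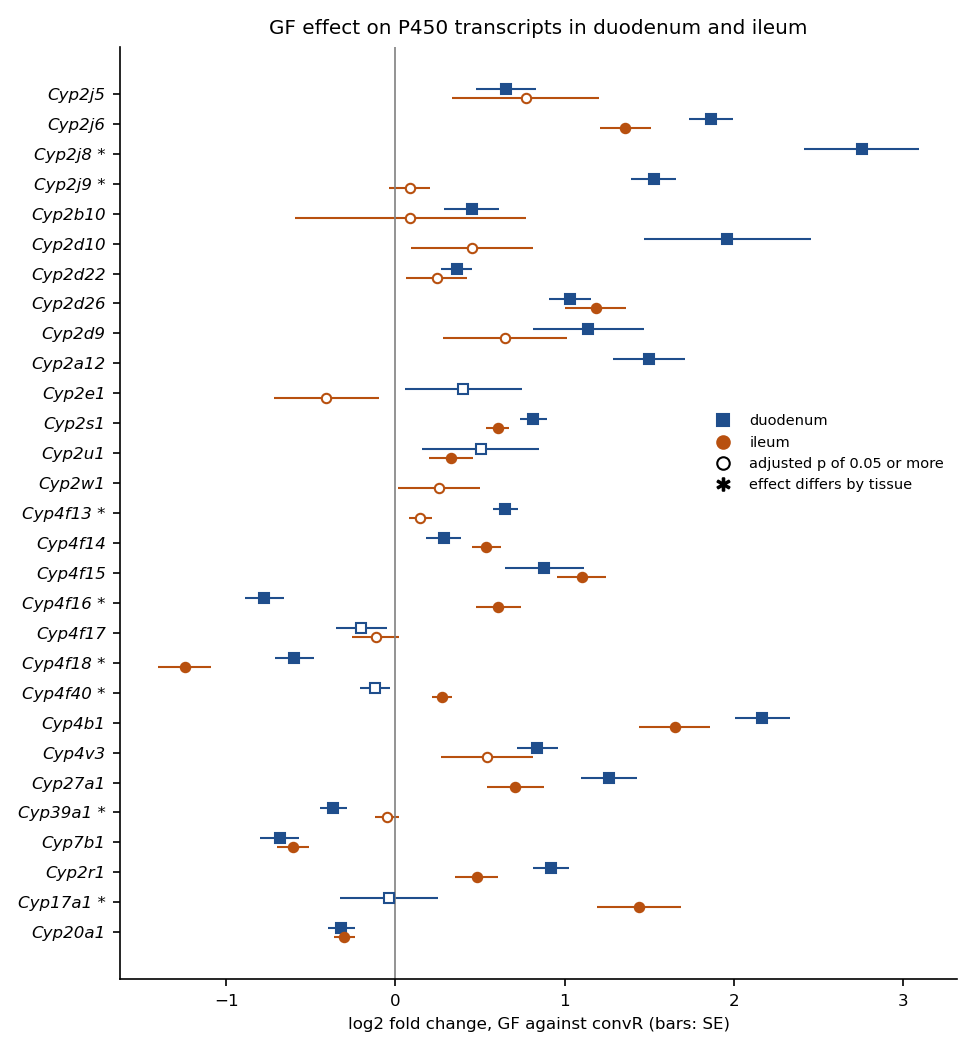
Log2 fold change of GF against convR with its SE in duodenum (squares) and ileum (circles) for the 29 members at a mean of 1 CPM or more, open where the adjusted p is 0.05 or more. Stars mark the 8 members whose effect differed between the tissues, and Cyp4f16 is the member with a called fall in duodenum and a called rise in ileum.

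The Cyp2j genes, whose enzymes make epoxides of arachidonic and linoleic acid, lie side by side on chromosome 4 (GRCm38/mm10). Of the 7, 4 had enough counts to be tested in duodenum, and all 4 rose in GF, as did 22.5% of all genes. Cyp2j8 reached the count filter through its GF libraries, with 18 to 48 reads against 1 to 16 in convR. Its place among the 4 thus depends on its rise. Cyp2j6 (ENSMUSG00000052914, chr4:96516138-96553661, minus strand) ran from 91.9 to 269 CPM with a median of 172 in convR duodenum and from 447 to 728 CPM with a median of 637 in GF duodenum. The groups did not overlap, which held for 1.43% of all genes in the direction higher in GF. The rise was 3.64-fold (log2 1.87 ± 0.13 SE, adjusted p = 7.49e-10). In ileum Cyp2j6 ran from 64.4 to 115 CPM (median 84.9) in convR and from 164 to 389.9 CPM (median 199) in GF, again without overlap, as 1.44% of all genes did, and rose 2.57-fold (log2 1.36 ± 0.15 SE, adjusted p = 1.2e-06).

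Cyp2j9 (ENSMUSG00000015224, chr4:96568429-96591578) differed from Cyp2j6 in ileum. It ran from 3.19 to 8.85 CPM (median 5.89) in convR duodenum and from 10.3 to 22.4 CPM (median 16.9) in GF duodenum, with no overlap (log2 1.53 ± 0.13 SE, adjusted p = 1.92e-08). In ileum it ran from 2.02 to 3.94 CPM (median 2.85) in convR and from 1.99 to 4.45 CPM (median 3.15) in GF, and the groups overlapped almost fully (log2 0.08 ± 0.12 SE, adjusted p = 0.612). The 2 effects differed by -1.44 ± 0.18 on the log2 scale (SE, adjusted p = 6.08e-07).

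Cyp2j8 (ENSMUSG00000082932) was low, at 0.0292 to 0.572 CPM in convR duodenum and 0.558 to 1.54 CPM in GF duodenum, and rose there by 2.76 ± 0.34 (log2, SE, adjusted p = 1.40e-06). Only the lowest GF library lay within the convR range. In ileum it had a mean of 0.137 CPM in convR and 0.299 CPM in GF and was too low for the test within that tissue. Cyp2j5 (ENSMUSG00000052520) rose in duodenum from a median of 0.648 to 1.08 CPM (log2 0.65 ± 0.18 SE, adjusted p = 0.00495), with overlapping groups. Without the libraries that stand apart its value was 0.40 (adjusted p = 0.209). Cyp2j11 and Cyp2j12, too low to test, had 42 and 27 reads over 12 convR duodenum libraries and 281 and 101 reads over 12 GF duodenum libraries. Cyp2j13, also too low to test, did not have more reads in GF than in convR duodenum, so not every gene of the cluster was higher in GF.

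The sequences before the start of these 4 rising genes are shown because the genes are neighbours that moved together in GF duodenum. They run 5′ to 3′ on the minus strand of chromosome 4 (RefSeq, GRCm38.p6), from 250 bases before the RefSeq start to the start of the gene in GENCODE M21 where that lies earlier. Capitals mark TGGGTAAA, the only 8-base stretch present upstream of all 4, read on both strands.
Cyp2j5 (chr4:96664155-96664369): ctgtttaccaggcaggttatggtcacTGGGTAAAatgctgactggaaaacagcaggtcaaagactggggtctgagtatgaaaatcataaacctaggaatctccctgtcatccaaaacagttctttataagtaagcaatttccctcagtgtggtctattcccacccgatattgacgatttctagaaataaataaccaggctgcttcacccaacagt
Cyp2j6 (chr4:96553662-96553901): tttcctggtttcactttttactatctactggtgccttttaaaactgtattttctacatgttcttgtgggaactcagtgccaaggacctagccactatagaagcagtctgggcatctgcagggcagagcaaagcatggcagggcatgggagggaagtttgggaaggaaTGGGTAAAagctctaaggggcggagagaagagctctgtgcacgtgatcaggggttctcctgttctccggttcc
Cyp2j8 (chr4:96507398-96507647): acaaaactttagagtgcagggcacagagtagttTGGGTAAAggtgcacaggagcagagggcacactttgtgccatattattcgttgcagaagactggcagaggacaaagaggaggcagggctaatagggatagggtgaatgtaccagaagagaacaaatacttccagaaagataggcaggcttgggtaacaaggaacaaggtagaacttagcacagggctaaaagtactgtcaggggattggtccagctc
Cyp2j9 (chr4:96591579-96591735): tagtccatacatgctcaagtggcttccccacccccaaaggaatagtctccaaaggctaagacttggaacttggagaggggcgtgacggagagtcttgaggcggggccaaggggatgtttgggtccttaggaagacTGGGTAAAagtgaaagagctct

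The stretch lies 224 bases before the RefSeq start in Cyp2j5, 83 in Cyp2j6, 217 in Cyp2j8 and 115 in Cyp2j9, on the strand of the gene each time. It occurs in 257 of all 32851 upstream windows of that length (0.782%) and, among the 53 windows of members, in those of these 4 genes. It was picked after the sequences were seen, the neighbours share ancestry, and a match is a description, not a binding site. Cyp2j6 also holds the E-box CACGTG, 44 bases before its start.

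The Cyp2b and Cyp2d genes lie in clusters on chromosomes 7 and 15 and act on drugs, steroids and other foreign compounds. All 5 Cyp2d members tested rose in GF duodenum, and 2 of 5 rose in ileum, where 22.5% and 19.5% of all genes rose. Cyp2d26 (ENSMUSG00000022445, chr15:82790101-82794294), the most abundant of them, ran from 133 to 374.5 CPM (median 307) in convR and from 504 to 667 CPM (median 568) in GF duodenum. The groups did not overlap (log2 1.03 ± 0.12 SE, adjusted p = 1.15e-06). In ileum it ran from 56.3 to 162 CPM (median 114) in convR and from 178 to 329.6 CPM (median 212) in GF, also without overlap (log2 1.18 ± 0.18 SE, adjusted p = 4.90e-05). Cyp2d22 rose by 0.36 log2 in duodenum (adjusted p = 0.00252), and in ileum its value was 0.24 (adjusted p = 0.299). Cyp2d40, the other member called in ileum, rose there from a median of 0.122 to 0.45 CPM (log2 1.65 ± 0.52 SE, adjusted p = 0.0158).

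Cyp2d10 (ENSMUSG00000094806) varied widely among the GF duodenum libraries. It ran from 0.322 to 2.61 CPM (median 0.778) in convR and from 0.669 to 15.1 CPM (median 3.46) in GF duodenum (log2 1.96 ± 0.49 SE, adjusted p = 0.00339). Its 4 highest values belonged to GF ZT22 replicate 2 (15.1 CPM), GF ZT6 replicate 1 (13.7 CPM), GF ZT22 replicate 1 (6.77 CPM) and GF ZT6 replicate 2 (5.37 CPM). Cybrd1, a reductase of iron uptake at the start of the duodenum, was at 286, 202, 239 and 31.9 CPM in the same libraries, and at 3.07 to 3.74 CPM in the 3 GF libraries where Cyp2d10 was under 1 CPM. Without the libraries that stand apart, the log2 fold change of Cyp2d10 was 1.12 (adjusted p = 0.328), that of Cyp2d9 0.48 (adjusted p = 0.331) in place of 1.14, and that of Cyp2d12 0.44 (adjusted p = 0.236) in place of 0.73. The part of the difference in Cybrd1 in these values was not tested. Cyp2d10 and Cyp2d9 share 14.9% and 9.86% of their 100-base stretches with other transcripts, mainly each other's, so their counts are not fully separate.

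Cyp2b10 (ENSMUSG00000030483, chr7:25897620-25926624) ran from 155 to 475 CPM (median 398) in convR and from 337 to 619.7 CPM (median 448) in GF duodenum. The groups overlapped widely, and the rise of 0.45 ± 0.16 (log2, SE, adjusted p = 0.0278) was not called without convR ZT6 replicate 1 (0.35, adjusted p = 0.0538), without convR ZT6 replicate 2 (adjusted p = 0.0599), or without convR ZT14 replicate 1 or GF ZT14 replicate 2. It was 0.14 (adjusted p = 0.552) without the libraries that stand apart, 0.33 (0.0645) when scaled by library size alone, and 0.45 (0.076) with no filter on low counts. In ileum it ran from 2.90 to 66.0 CPM (median 24.6) in convR and from 5.97 to 93.9 CPM (median 14.5) in GF (log2 0.09 ± 0.68 SE, adjusted p = 0.933). The 3 highest GF ileum values, 93.9, 87.3 and 85.6 CPM, were those of ZT22 replicate 2, ZT18 replicate 2 and ZT14 replicate 1, and the other 8 were at 18.5 CPM or less. The summed level of 4 duodenum markers was 70.5, 46.3 and 53.3 CPM in these 3 libraries and 33.7 CPM or less in the other 8. Cyp2b13 was under 1 CPM on average and was called in neither tissue.

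Among the smaller Cyp2 subfamilies, 2 of 6 tested rose in each tissue and none fell, where 46.3% of all genes passed in duodenum and 42% in ileum. Cyp2s1 (ENSMUSG00000040703, chr7:25802475-25816913), an epithelial P450 that acts on retinoids and eicosanoids, ran from 30.8 to 59.6 CPM (median 42.3) in convR and from 52.3 to 89.8 CPM (median 76.6) in GF duodenum. Its rise was 0.81 ± 0.08 (log2, SE, adjusted p = 5.94e-08), with overlap of the groups. In ileum it ran from 39.1 to 61.7 CPM (median 47.8) in convR and from 66.2 to 91.4 CPM (median 73.2) in GF, without overlap (log2 0.60 ± 0.07 SE, adjusted p = 6.88e-07). Its exons overlap those of Gm26707 on the opposite strand. Cyp2a12 rose in duodenum from a median of 0.417 to 1.34 CPM (log2 1.5 ± 0.21 SE, adjusted p = 7.60e-06).

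Cyp2e1, which oxidises ethanol and other small molecules, was called in neither tissue (log2 0.40 ± 0.35 SE in duodenum, adjusted p = 0.367, and -0.41 ± 0.31 in ileum, adjusted p = 0.309). With the replicate number as a block, which GF and convR share only as a number, Cyp2e1 passed in duodenum (0.46, adjusted p = 0.0334). Its level followed the replicate number in duodenum. In convR it ran from 8.48 to 11.4 CPM in the 6 libraries of replicate 1 and from 2.26 to 5.87 CPM in the 6 of replicate 2. In GF these ranges were 9.53 to 16.9 and 3.72 to 8.80 CPM, so replicate 1 was above replicate 2 at 6 of 6 times in both groups. In convR ileum it was so at 3 of 6 times, with 14.3 to 22.6 CPM in replicate 1 and 3.61 to 19.1 CPM in replicate 2. The summed level of 10 hepatocyte markers ran from 67.8 to 109.7 CPM in replicate 1 and from 20.4 to 46.8 CPM in replicate 2 of convR duodenum, and Alb, the albumin gene, from 36.1 to 62.4 and from 9.43 to 25.2 CPM. In convR ileum the hepatocyte sum split the same way, at 60.1 to 118 and 17.3 to 41.8 CPM, and so did the low members Cyp2d9, Cyp2a12 and Cyp2j5, each higher in replicate 1 at 6 of 6 times. None of the 10 hepatocyte markers was at 0 in any group, and the part of liver RNA in these low values was not tested.

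Cyp2u1 (ENSMUSG00000027983, chr3:131288441-131303227), a hydroxylase of long-chain fatty acids, gave 0.50 ± 0.35 in duodenum (log2, SE, adjusted p = 0.251), where it ran from 3.93 to 13.3 CPM in convR and from 2.5 to 34.0 CPM in GF. Its levels in ileum ran from 12.8 to 36.3 CPM (median 22.1) in convR and from 12.5 to 54.4 CPM (median 28.3) in GF. Its rise in ileum of 0.33 ± 0.13 (log2, SE, adjusted p = 0.0471) was lost in 15 of the 23 fits that left out a library, with adjusted p up to 0.0925 without GF ZT22 replicate 2, and was 0.26 (adjusted p = 0.155) without the libraries that stand apart.

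The Cyp4f genes, whose enzymes hydroxylate leukotrienes and other long-chain fatty acid derivatives, did not move as a block. In duodenum 3 of 7 tested rose and 2 fell, where 22.5% of all genes rose and 23.8% fell. In ileum 4 of 8 rose and 1 fell, where 19.5% of all genes rose and 22.4% fell. All but Cyp4f18, which is on chromosome 8, lie within one cluster on chromosome 17. Cyp4f16 (ENSMUSG00000048440, chr17:32536558-32551798) ran from 98.3 to 257 CPM (median 169.9) in convR and from 72.5 to 126.5 CPM (median 97.7) in GF duodenum, and was lower in GF at 6 of 6 times with some overlap (log2 -0.77 ± 0.11 SE, adjusted p = 1.35e-05). Ileum libraries ran from 63.7 to 177.5 CPM (median 119) in convR and from 119.5 to 241 CPM (median 179) in GF, and was higher in GF at 6 of 6 times (log2 0.61 ± 0.13 SE, adjusted p = 0.00109). The difference of the effects was 1.39 ± 0.18 (log2, SE, adjusted p = 8.70e-07). Some 9.80% of the 100-base stretches of Cyp4f16 also occur in other transcripts, mainly Cyp4f37.

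Cyp4f18 (ENSMUSG00000003484, chr8:71988482-72009626), which inactivates leukotrienes in neutrophils and other immune cells, fell in both tissues. It ran from 3.72 to 8.29 CPM (median 5.57) in convR and from 2.70 to 4.70 CPM (median 3.78) in GF duodenum (log2 -0.60 ± 0.12 SE, adjusted p = 2.30e-04). The ileal values ran from 2.14 to 4.62 CPM (median 3.52) in convR and from 0.849 to 1.88 CPM (median 1.42) in GF, without overlap, as 4.58% of all genes in the direction lower in GF (log2 -1.25 ± 0.16 SE, adjusted p = 1.95e-06). The summed level of 6 macrophage markers ran from 138 to 291 CPM in convR and from 97.0 to 154 CPM in GF duodenum, and from 105 to 185 CPM in convR and from 52.1 to 77.8 CPM in GF ileum, with none at 0. The part of immune cells in the fall of Cyp4f18 was not tested. Its exons overlap those of Zfp961 on the opposite strand.

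Cyp4f14 (ENSMUSG00000024292, chr17:32905070-32917342) ran from 718 to 1201 CPM (median 1026) in convR and from 1060 to 1651 CPM (median 1421) in GF ileum and rose there by 0.54 ± 0.08 (log2, SE, adjusted p = 3.38e-05). In duodenum its rise of 0.29 ± 0.10 (SE, adjusted p = 0.0277) was lost without any of GF ZT6 replicate 2, convR ZT10 replicate 2, convR ZT14 replicate 1 or convR ZT18 replicate 2, and without the libraries that stand apart (0.23, adjusted p = 0.125) or by library size alone (adjusted p = 0.0953). Cyp4f13 rose in duodenum, from 32.1 to 49.6 CPM (median 39.5) in convR to 49.6 to 74.7 CPM (median 62.9) in GF, where the groups touched without overlapping (log2 0.65 ± 0.07 SE, adjusted p = 3.50e-07). In ileum its value was 0.15 ± 0.07 (adjusted p = 0.0913). Cyp4f15 rose in both tissues, by 0.88 ± 0.23 in duodenum (adjusted p = 0.0043) and by 1.10 ± 0.14 in ileum (log2, SE, adjusted p = 3.62e-06). In duodenum it was highest in GF ZT22 replicate 2 at 10.3 CPM, one of the libraries with high Cybrd1, and without the libraries that stand apart its value there was 0.42 (adjusted p = 0.465).

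Outside Cyp4f, Cyp4b1 (ENSMUSG00000028713, chr4:115624725-115647723) ran from 22.9 to 110.1 CPM (median 71.4) in convR and from 247 to 389.7 CPM (median 321.5) in GF duodenum. The groups did not overlap (4.5-fold, log2 2.17 ± 0.16 SE, adjusted p = 4.19e-09). Within ileum it ran from 42.3 to 145 CPM (median 113) in convR and from 192 to 433 CPM (median 272) in GF, also without overlap (3.14-fold, log2 1.65 ± 0.21 SE, adjusted p = 6.69e-06). Cyp4v3 (ENSMUSG00000079057), which hydroxylates medium-chain fatty acids, ran from 252 to 714 CPM (median 553) in convR and from 667 to 1284 CPM (median 947) in GF duodenum (log2 0.84 ± 0.12 SE, adjusted p = 1.02e-05). In ileum its value was 0.54 ± 0.27 (adjusted p = 0.124), with a spread in GF from 267 to 882 CPM and the 3 highest values in the same 3 libraries as for Cyp2b10. Cyp4a32 rose in duodenum by 1.26 (adjusted p = 0.0188) from a median of 0.247 to 0.727 CPM, with 1.15 (adjusted p = 0.358) without the libraries that stand apart and an adjusted p of 0.0505 with no filter on low counts. It shares 20.1% of its 100-base stretches with other transcripts, mainly Cyp4a10.

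**Figure D3:**
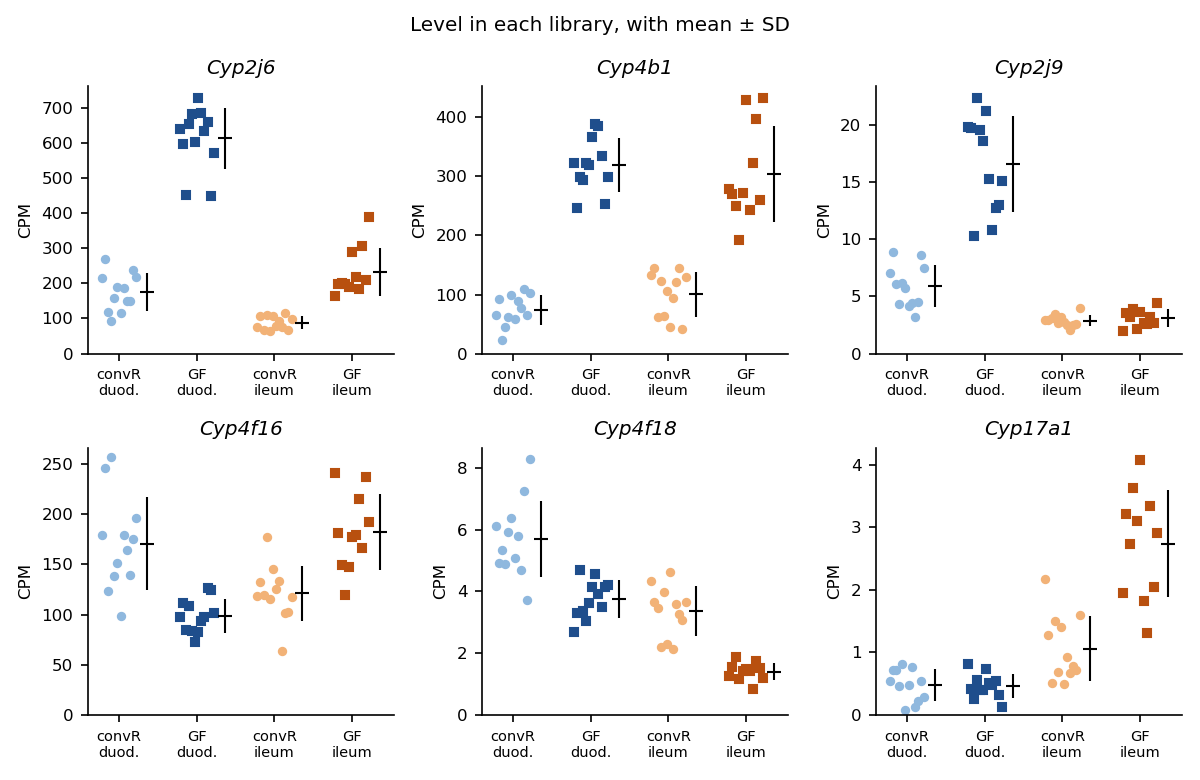
Level in CPM of 6 members in each library, with points for libraries and the mean ± SD beside them, for 12 convR and 12 GF duodenum and 12 convR and 11 GF ileum libraries. Cyp2j6 and Cyp4b1 separate GF from convR in both tissues, Cyp2j9 in duodenum, and Cyp4f18 in ileum, while Cyp4f16 is lower in GF duodenum and higher in GF ileum.

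Of the 6 bile acid and oxysterol members, 3 were tested in each tissue. Cyp27a1 (ENSMUSG00000026170, chr1:74713574-74737892), the mitochondrial sterol hydroxylase that starts the acidic route of bile acid synthesis, ran from 24.4 to 58.0 CPM (median 38.8) in convR and from 56.4 to 142 CPM (median 98.9) in GF duodenum. The groups overlapped by a narrow margin (log2 1.26 ± 0.17 SE, adjusted p = 5.88e-06). Ileal levels ran from 20.1 to 37.3 CPM (median 26.6) in convR and from 27.6 to 99.2 CPM (median 38.2) in GF (log2 0.71 ± 0.17 SE, adjusted p = 0.00217). Cyp7b1 (ENSMUSG00000039519), which clears the oxysterols made by that step, fell in both tissues, by 0.69 ± 0.11 in duodenum (adjusted p = 4.98e-05) and by 0.61 ± 0.10 in ileum (log2, SE, adjusted p = 3.48e-05), and was lower in GF at 6 of 6 times in each. Its median went from 2.76 to 1.57 CPM in duodenum and from 3.24 to 2.08 CPM in ileum. Cyp39a1, a hydroxylase of oxysterols, fell in duodenum by 0.37 ± 0.08 (log2, SE, adjusted p = 5.74e-04), or -0.24 (adjusted p = 0.146) without the libraries that stand apart, and had a value of -0.05 in ileum (adjusted p = 0.579). Cyp7a1, the rate-limiting enzyme of bile acid synthesis in liver, and the other 2 members of this group had group means of 0.217 CPM or less.

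Cyp2r1 (ENSMUSG00000030670, chr7:114549682-114562972), which hydroxylates vitamin D to its circulating form, ran from 1.47 to 3.17 CPM (median 2.58) in convR and from 3.27 to 6.08 CPM (median 4.49) in GF duodenum, without overlap (log2 0.92 ± 0.11 SE, adjusted p = 6.28e-07). In ileum it rose by 0.48 ± 0.13 (log2, SE, adjusted p = 0.00495) with overlapping groups. Cyp27b1, which makes the active hormone, was at or under a group mean of 0.126 CPM. Cyp17a1 (ENSMUSG00000003555, chr19:46667165-46673172), a steroid hydroxylase of androgen synthesis, ran from 0.493 to 2.17 CPM (median 0.854) in convR and from 1.30 to 4.07 CPM (median 2.91) in GF ileum and rose 2.71-fold (log2 1.44 ± 0.25 SE, adjusted p = 1.02e-04). In duodenum it had a mean of 0.48 CPM in convR and 0.46 CPM in GF (log2 -0.04 ± 0.29 SE, adjusted p = 0.931). The other 4 steroid members had group means of 0.0259 CPM or less. Cyp20a1, which has no known substrate, fell by 0.32 ± 0.08 in duodenum (adjusted p = 0.00215) and by 0.30 ± 0.06 in ileum (log2, SE, adjusted p = 5.20e-04).

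Whether the GF effect differed between the tissues was tested as an interaction over all 47 libraries. That fit did not use the pairing of convR tissues by replicate number. The 8 members called by it were also called with the number as a block. Of 36 members tested 8 passed, 4 in each direction, against 12.3% of all 19000 genes (4.58% with the larger value in ileum and 7.69% with the larger value in duodenum). More positive in ileum were Cyp4f16, Cyp17a1 (difference 1.49 ± 0.39, log2, SE, adjusted p = 0.00924), Cyp4f40 (0.40 ± 0.11, adjusted p = 0.0122) and Cyp39a1 (0.32 ± 0.11, adjusted p = 0.0418). More positive in duodenum were Cyp2j9, Cyp2j8 (-1.75 ± 0.47, adjusted p = 0.0108), Cyp4f13 (-0.50 ± 0.10, adjusted p = 7.64e-04) and Cyp4f18 (-0.64 ± 0.19, adjusted p = 0.0247). Cyp2j8 was too low for the test within ileum. Cyp4f40, a close relative of Cyp4f16 in the same cluster, rose in ileum by 0.28 ± 0.06 (log2, SE, adjusted p = 8.32e-04) and had a value of -0.12 in duodenum (adjusted p = 0.283). For Cyp2j6 the difference was -0.50 ± 0.20 (adjusted p = 0.102) and for Cyp4b1 -0.51 ± 0.26 (adjusted p = 0.22). Without the libraries that stand apart 2 members passed in the direction of ileum and 3 in that of duodenum. Of all genes 2.69% passed in the direction of ileum in that fit, and 6.66% in either direction. Cyp17a1 (adjusted p = 0.309), Cyp39a1 (0.265) and Cyp4f18 (0.209) were not called in it. The call of Cyp4f18 was also lost without GF ileum ZT2 replicate 2 or convR ileum ZT14 replicate 1, and that of Cyp39a1 without any of 13 of the 47 libraries.

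Levels in ileum were compared with those in duodenum within each status. In convR 30 members were tested, of which 7 were higher and 15 lower in ileum, against 24.9% and 24.8% of all genes (49.6% in either direction). In GF 34 were tested, with 9 higher and 18 lower, against 33.2% and 33.4% of all genes (66.5% in either direction). The median log2 fold change of the members was -0.44 in convR and -0.48 in GF, with 0.01 over all genes in each. Between the tissues, all 6 smooth muscle markers were higher in ileum (median log2 fold change 1.11 in convR and 1.46 in GF), as were 5 of 6 goblet cell markers in convR and 6 of 6 in GF, while all 6 macrophage markers were lower. Of 8 enterocyte markers 4 were higher and 3 lower in convR, and 2 and 3 in GF. The part of these cell types was not tested. Replicate numbers paired the convR tissues, and with the number as a block the same counts of 7 and 15 were found. Under the block 27.7% of all genes were higher in ileum and 54.7% passed in either direction. The values printed for the tissues are from fits without that block. Scaled by totals alone, 10 were higher and 14 lower in convR, and 11 and 18 in GF, where the share of higher genes among all those called went from 49.8 to 63.6%. Of all genes 28.3% were higher in convR by that scaling (49.2% in either direction) and 44.6% in GF (70.1%).

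Of the members tested, Cyp2b10 had the widest gap, at 13.4-fold lower in ileum in convR (log2 -3.74 ± 0.46 SE, adjusted p = 1.94e-06) and 17.9-fold lower in GF (log2 -4.16 ± 0.54, adjusted p = 3.30e-06). Its libraries did not overlap between tissues in either status, which held in the direction lower in ileum for 3.96% of all genes in convR and 11.3% in GF. All Cyp2j members tested were lower in ileum, 3 in convR and 4 in GF (Cyp2j5 in convR with an adjusted p of 0.102 without the libraries that stand apart), among them Cyp2j9 by 0.98 log2 in convR and by 2.39 in GF. Cyp2j8, tested in GF alone, reached the count filter through its duodenum libraries (18 to 48 reads, against 4 to 31 in ileum). Of all genes 24.8% were lower in ileum in convR and 33.4% in GF. Cyp2d26 was lower by 1.40 in convR and by 1.29 in GF, and Cyp2d22 by 0.87 and 1.01, all with an adjusted p of 1.73e-05 or less.

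The members higher in ileum were fewer. Cyp4f40 (ENSMUSG00000090700, chr17:32658900-32676914) ran from 27.6 to 64.1 CPM in convR duodenum and from 74.0 to 100.3 CPM in convR ileum, and from 34.2 to 56.7 CPM in GF duodenum and from 85.8 to 124 CPM in GF ileum. Neither pair overlapped, which in the direction higher in ileum held for 3.73% of all genes in convR and 8.55% in GF, and the log2 fold changes were 0.92 ± 0.07 (adjusted p = 1.05e-09) and 1.34 ± 0.06 (SE, adjusted p = 4.56e-14). Cyp2u1 was higher in ileum by 1.62 ± 0.17 in convR (adjusted p = 1.47e-07) and by 1.46 ± 0.32 in GF (log2, SE, adjusted p = 6.83e-04). Cyp17a1 was higher by 1.16 in convR and by 2.58 in GF. Cyp2w1, known from fetal gut and colon tumours, was at 0 to 0.294 CPM in GF duodenum and 0.576 to 1.5 CPM in GF ileum (log2 2.96 ± 0.24 SE, adjusted p = 6.82e-10). Cyp4f16 was lower in ileum in convR (-0.49 ± 0.13, adjusted p = 0.00418) and higher in ileum in GF (0.90 ± 0.07, log2, SE, adjusted p = 9.23e-10).

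Daily rhythm was tested as a cosine of 24 h. In single groups of 11 or 12 libraries, edgeR called 0 of 33 members in convR duodenum, where 0.0318% of all genes passed, 0 of 34 in GF duodenum (2.23%), 0 of 32 in convR ileum (0.118%) and 1 of 36 in GF ileum (1.2%). At an unadjusted p under 0.05 these counts were 4, 6, 4 and 4, beside 1997 of 18871, 2828 of 18193, 1570 of 18675 and 2032 of 18554 genes in all. DESeq2 called 1, 3, 1 and 2 members, and 2.39, 5.93, 1.52 and 3.37% of all genes. In simulated counts, rhythms with a range from trough to peak of 1 log2 were recovered in 37.3% of cases in convR duodenum, 50.7% in GF duodenum, 59.7% in convR ileum and 64.2% in GF ileum. The simulation held no effect of library, admixed tissue or replicate, so recovery may be lower in the real libraries. The clock-driven factors Dbp, Tef and Hlf did not pass in convR duodenum, at ranges of 3.74, 2.16 and 1.97 log2 (adjusted p = 0.146, 0.0841 and 0.249). Nor did their antagonist Nfil3 (2.6 log2, adjusted p = 0.143). A fit of 1 rhythm common to convR and GF, chosen after seeing the data, called 1 of 33 members in duodenum (5.7% of all genes) and 1 of 32 in ileum (3.67%).

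The member called in ileum was Cyp2u1. It overlaps a gene on the opposite strand, and whether strand was used in counting is not known. Its counts may thus hold reads of that gene. Its mean was 53.8 CPM at ZT10 and 17.4 CPM at ZT22 in GF ileum, with 53.2 and 54.4 CPM in the libraries of ZT10 and 12.5 and 22.3 CPM in those of ZT22. The GF rhythm had a range of 1.68 log2 and a peak at ZT 8.69 (adjusted p = 0.00118, or 0.0559 with ZT as a factor). In convR ileum the libraries of ZT10 were at 33.8 and 36.3 CPM and those of ZT22 at 12.8 and 18 CPM (range 1.11 log2, adjusted p = 0.221). The rhythm common to both groups had a range of 1.40 log2 with its peak at ZT 9.34 (adjusted p = 1.57e-04). In GF duodenum Cyp2u1 was at 34.0 and 6.76 CPM in the 2 libraries of ZT14, where Cybrd1 was at 3.74 and 196 CPM.

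In duodenum the member called was Cyp4f40. Its mean in convR fell from 59.3 CPM at ZT22 and 57.7 CPM at ZT2 to 32.2 CPM at ZT14, and in GF it lay between 39.6 and 51.5 CPM at all times. Both convR libraries of ZT14 stand apart, by stomach markers in replicate 1 (mean 1319 CPM) and pancreas markers in replicate 2 (245.9 CPM). So do convR replicate 2 of ZT2 and of ZT22. The part of admixed tissue in this low point was not tested. The common rhythm had a range of 0.57 log2 with its peak at ZT 0.918 (adjusted p = 0.0129, or 0.102 with ZT as a factor in place of the cosine), and in convR alone the range was 0.91 log2 (adjusted p = 0.0825). No gene of any kind passed the test for a rhythm that differs between GF and convR, in either tissue, by edgeR or, among members, by DESeq2. At an unadjusted p under 0.05 it gave 2 of 33 members in duodenum and 1 of 32 in ileum, beside 739 of 17986 and 608 of 18082 genes in all. Of rhythm differences with a range of 1 log2, 23.9% were recovered in simulated duodenum counts and 31.3% in ileum.

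**Figure D4:**
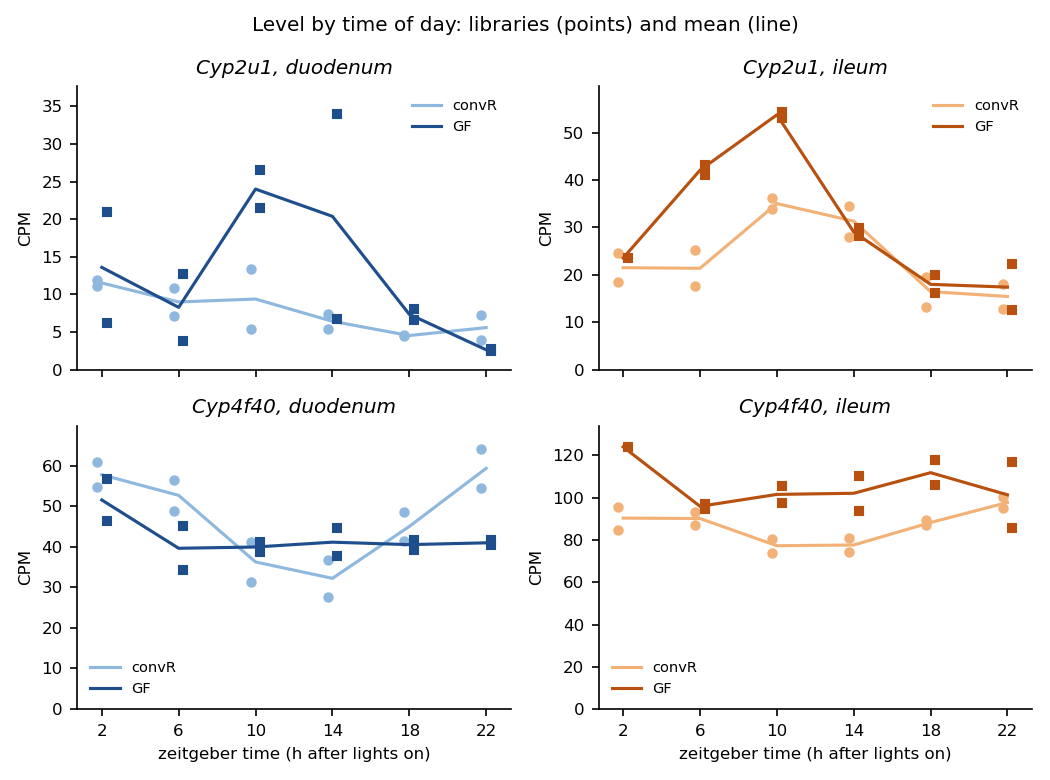
Level in CPM of Cyp2u1 and Cyp4f40 by zeitgeber time in hours, with points for libraries and lines through group means, circles for convR and squares for GF. Cyp2u1 in ileum is highest at ZT10 in both groups, and Cyp4f40 in convR duodenum is lowest at ZT14, where both libraries stand apart.

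Genes that work with P450 enzymes were read from lists of their own. Of 10 electron donors, 5 rose and 1 fell in GF duodenum and 3 rose and 1 fell in GF ileum, where 46.3% and 42% of all genes passed in either direction. Cyb5b, the cytochrome b5 of the outer mitochondrial membrane, went from a mean of 876 to 1517 CPM in duodenum (log2 0.80 ± 0.07 SE, adjusted p = 1.09e-08) and from 483 to 687 CPM in ileum (0.50 ± 0.05, adjusted p = 2.76e-07). Por, the reductase shared by P450 enzymes of the endoplasmic reticulum, went from 192 to 283 CPM in duodenum (0.56 ± 0.13, adjusted p = 0.00147) and from 72.1 to 95.6 CPM in ileum (0.38 ± 0.07, adjusted p = 2.07e-04). In convR 9 of the 10 were lower in ileum than in duodenum, and none was higher, where 24.8% of all genes were lower. Of the 2 epoxide hydrolases tested, which open the epoxides that P450 enzymes make, Ephx2 rose by 0.44 in duodenum (adjusted p = 0.00766) and by 0.86 in ileum (adjusted p = 0.00298), and Ephx1 fell by 0.50 in ileum (log2, adjusted p = 3.38e-05). In duodenum Ephx1 had a value of 0.02 (adjusted p = 0.975). Both hydrolases were lower in convR ileum than in convR duodenum.

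Of 10 genes of heme synthesis and breakdown, 4 rose and 1 fell in GF duodenum and 1 rose and 2 fell in GF ileum, near and below those shares of all genes. Cpox and Ppox rose by 0.42 and 0.34 in duodenum (log2, adjusted p = 1.12e-04 and 4.41e-04) and had values of -0.06 and -0.02 in ileum (adjusted p = 0.557 and 0.775). Fech rose by 0.20 in duodenum (adjusted p = 0.00112) and by 0.10 in ileum (log2, adjusted p = 0.0392). Hmox1, which degrades heme, fell by 1.10 ± 0.22 in duodenum (adjusted p = 3.68e-04) and by 0.87 ± 0.11 in ileum (log2, SE, adjusted p = 1.55e-06). Alas1, the rate-limiting enzyme of heme synthesis, fell by 0.24 in ileum (log2, adjusted p = 0.00639) and had a value of -0.20 in duodenum (adjusted p = 0.136). Of 13 receptors that control P450 genes, 8 rose and 0 fell in GF duodenum, and 8 rose and 1 fell in GF ileum. Of all genes 22.5% rose in GF duodenum and 19.5% in GF ileum. Nr1i3 (CAR) went from a mean of 87.1 to 153 CPM in duodenum (log2 0.83 ± 0.08 SE, adjusted p = 6.44e-08), and in ileum from 10.4 to 24.3 CPM (1.26 ± 0.41, adjusted p = 0.0197). Ppara, the fatty acid receptor that controls Cyp4a genes, rose by 0.87 in duodenum (adjusted p = 4.20e-06) and by 0.91 in ileum (log2, adjusted p = 2.93e-10). Dbp, Tef and Hlf, clock-driven factors that bind the D-box in P450 promoters of the liver, and their antagonist Nfil3 were all 4 rhythmic in the common fit of each tissue, with ranges from 2.33 to 4.67 log2 in duodenum and from 2.35 to 4.22 log2 in ileum. In GF 3 of these 4 rose in duodenum, led by Hlf (log2 1.42 ± 0.23 SE, adjusted p = 7.01e-05), and in ileum 2 rose and 1, Nfil3, fell (log2 -0.78 ± 0.25 SE, adjusted p = 0.0202).

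Promoters from 250 bases before to 50 bases after the RefSeq start (GRCm38.p6) were found for 46 of the 62 members, in 53 windows. The D-box TTACGTAA was in 0 of the 53 windows and in 0.119% of all 32851, and its variant TTATGTAA in 0 of 53 and in 0.938%. The E-box CACGTG was in 2 of 53 (3.77%, those of Cyp2j6 and Cyp4v3) and in 7.15% of all. The nuclear receptor motif AGGTCA was in 11 of 53 (20.8%) and in 16.3% of all. Both strands were read, and no match says only that these letters are not in this window.

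Levels of several members went with segment or hepatocyte markers from library to library. In duodenum the 4 libraries with the most Cybrd1 (195.6 to 286 CPM) were all GF, and they had Cyp2d10 at 5.23 to 15.1 CPM and Cyp2u1 at 2.5 to 6.76 CPM. In the 3 GF libraries with Cybrd1 at 3.07 to 3.74 CPM, Cyp2d10 was at 0.669 to 0.979 CPM and Cyp2u1 at 8.12 to 34.0 CPM. The high ones were ZT6 replicate 1 and both of ZT22, which stand apart, and ZT14 replicate 2. The low ones were replicate 1 of ZT2, ZT14 and ZT18. Sampling time and admixed tissue thus also differed between these libraries, and their part was not tested. In convR ileum Cyp2b10 followed the replicate number, at 2.90 to 37.0 CPM in replicate 1 and 23.7 to 66.0 CPM in replicate 2, higher in replicate 2 at 6 of 6 times. Cyp2j6, Cyp4v3 and the enterocyte marker sum were also higher in replicate 2 of convR ileum at 6 of 6 times, and in GF ileum Cyp2j6 was so at 3 of 5. The part of these differences in the comparisons of GF with convR was not tested.

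**Figure D5:**
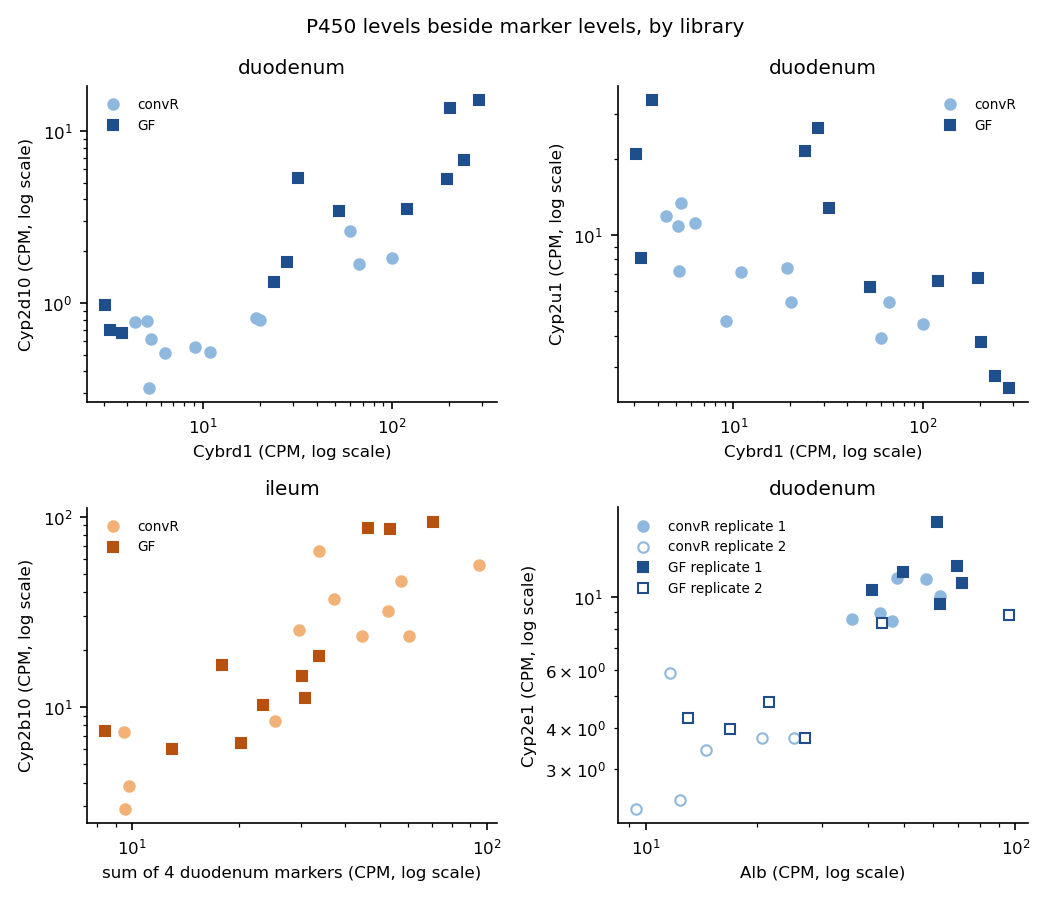
Level of 4 members against marker levels by library, all in CPM on log axes, with circles for convR and squares for GF. Sampling times differ between the libraries, and libraries that stand apart are included. In duodenum Cyp2d10 is high and Cyp2u1 low where Cybrd1 is high, in ileum Cyp2b10 is high in libraries with more of 4 duodenum markers, and Cyp2e1 splits with Alb by replicate number (filled for replicate 1, open for replicate 2).

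The other 33 members had a mean under 1 CPM in all 4 groups. The highest of them were Cyp4a32 at 0.911 CPM in GF duodenum, Cyp2f2 at 0.857 CPM in GF ileum, Cyp2b13 at 0.84 CPM in GF duodenum and Cyp2j11 at 0.771 CPM in GF duodenum. The 2 retinoic acid hydroxylases had group means of 0.211 CPM or less.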

How the data were processed

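RNA was sequenced from duodenum and ileum as stranded total RNA libraries depleted of ribosomal RNA, per the labels' protocols, from 250 ng of RNA. The deposited table holds exon read counts per gene for 47 libraries. Per the submitters' processing notes, STAR 2.4.0i and the mm10 build were used. Which program and annotation gave the counts, and whether strand was used, is not given in the sources used here. The members, gene lists and tests were chosen with earlier results of these data known.

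Counts were tested with edgeR 4.0.16 (R 4.3.3): TMM scaling, filterByExpr with a minimum count of 10, robust quasi-likelihood fits with ZT as a factor, or a cosine and sine of 24 h for rhythm, and two-sided p-values adjusted over all genes by Benjamini-Hochberg at 0.05. The range of a rhythm is its log2 difference from trough to peak. CPM are counts per 1 M of the TMM-scaled total, and RPKM are CPM per kilobase of the exon length in the table. Members were named when their mean reached 1 CPM in a group, with at most 12 others as examples, and genes of other lists by the smallest p, up to 3 per list and comparison. Coordinates are those of GENCODE M21. DESeq2 1.42.0, scaling by library size, no filter, each library left out and a replicate block were the alternatives. Libraries were said to stand apart if pancreas or stomach markers averaged above 100 CPM, if the TMM factor exceeded 1.2, or if an ileum library had less than 1000 CPM of Fabp6. Overlap with other transcripts was the share of 100-base stretches found elsewhere.

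Same-numbered convR libraries of duodenum and ileum deviated together at 6 of 6 times (r = 0.149 to 0.561 across genes), so these were taken as paired. The values printed for the tissues and for the interaction come from fits without this pairing, and the replicate block was run as an alternative. The fits were tested on simulated counts without effects of library, admixed tissue or replicate. There 95.5% of changes of 1 log2 were recovered for GF against convR in duodenum and 92.5% in ileum.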

Additional observations from a re-analysis of the deposited data

Results flagged for a closer look

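For 8 members the GF effect differed between the tissues by the interaction test (edgeR quasi-likelihood, Benjamini-Hochberg over 19000 genes, of which 12.3% passed). Given as the log2 effect in ileum minus that in duodenum, the difference was 1.39 for Cyp4f16 (adjusted p = 8.70e-07), whose mean was lower in GF at 6 of 6 times in duodenum and higher at 6 of 6 in ileum. It was -1.44 for Cyp2j9 (adjusted p = 6.08e-07), which rose in duodenum. Cyp2j8, its neighbour at a far lower level, gave -1.75 (adjusted p = 0.0108), and Cyp4f13 gave -0.497 (adjusted p = 7.64e-04). Cyp17a1, called in ileum, gave 1.49 (adjusted p = 0.00924), and Cyp4f40 gave 0.403 (adjusted p = 0.0122). Cyp4f18 fell in both tissues, with a difference of -0.64 (adjusted p = 0.0247), and Cyp39a1 fell in duodenum, with a difference of 0.32 (adjusted p = 0.0418).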

How the results depend on the processing

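Of the 25 members called in GF against convR duodenum, 16 were called in every alternative and left-out fit that tested them, as were 15 of 16 in ileum, 5 of 8 for the difference between tissues, 17 of 22 for the tissues in convR and 25 of 27 in GF. Cyp2d40 in ileum was tested in only 20 of the 23 fits that left out a library, and was called in those 20. Without the libraries that stand apart, 12 members rose in GF duodenum and 2 passed with the larger effect in ileum, while over all genes 5299 in place of 8328 and 1293 in place of 2331 were called, with fewer samples. Leaving out 1 library gave 18 to 20 members higher and 5 lower in GF duodenum, 11 to 14 higher in GF ileum, 13 to 16 lower in convR ileum than duodenum and 18 to 19 in GF. Scaling by library size alone moved the share of higher genes among all called from 37.3 to 55.4% for the difference between tissues, where 5 members passed higher and 3 lower. Of all genes 6.36% were higher by that scaling and 11.5% passed in either direction.

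Rhythm counts moved most. Over all genes, DESeq2 called 451 in place of 6 in convR duodenum, 1079 in place of 405 in GF duodenum, 283 in place of 22 in convR ileum and 626 in place of 223 in GF ileum, and for the common rhythm 1792 in place of 1026 in duodenum and 1246 in place of 663 in ileum. With no filter 32 were called in convR duodenum and 41 in convR ileum. The convR ileum count was 48 with the replicate block, 7 by library size alone and 5 without the libraries that stand apart. In convR duodenum 1 member passed with no filter and 1 by DESeq2, in GF duodenum 3 by DESeq2 and 0 to 2 with a library left out (2 without ZT2 replicate 1), in convR ileum 1 by DESeq2, and in GF ileum 2 by DESeq2 and 0 with ZT as a factor (Cyp2u1, adjusted p = 0.0559). The common rhythm in duodenum gave 2 by library size alone, 2 with the replicate block, 2 with ZT as a factor (without Cyp4f40) and 1 to 2 with a library left out (2 without convR ZT6 replicate 2). In ileum it gave 2 with no filter, 2 by DESeq2, 2 without the libraries that stand apart and 1 to 2 with a library left out (2 without GF ZT2 replicate 2). The cause of these moves was not tested.

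Among uncalled values, 3 changed sign: Cyp17a1 in duodenum to 0.41 without the libraries that stand apart and 0.14 without convR ZT10 replicate 1 (-0.15 to 0.14 with a library left out), Cyp2b10 in ileum to -0.39 without GF ZT14 replicate 1 (-0.39 to 0.53), and Cyp39a1 in ileum to 0.0018 without the libraries that stand apart. GF and convR libraries of 1 number share only that number (r = -0.058 to 0.221 in duodenum and -0.0344 to 0.341 in ileum). With the replicate block 22 members rose and 5 fell in GF duodenum, 14 rose and 3 fell in ileum, and the counts between tissues were the same. Of all genes 23.8% rose in GF duodenum with it (48.2% in either direction) and 21.9% in ileum (45.6%). Under the block Cyp2e1 passed in duodenum (0.46, adjusted p = 0.0334) and Cyp2u1 did not in ileum (adjusted p = 0.0527). Members under about 0.133 CPM are at the limit of 3 counts.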
